A study of Mus musculus with 28 samples.

Results

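The hippocampal microglia of antibiotic-treated (ABX) 5xFAD mice were compared with those of germ-free (GF) 5xFAD mice, 6 against 5 libraries of the 28 in the study, each from 1 mouse. These 11 libraries were taken by their titles, and no measured value was used to choose them. 5xFAD mice carry human *APP* and a second human transgene, each with mutations of familial Alzheimer disease and driven by a neuron-specific promoter rather than in microglia, and amyloid-β (Aβ) plaques build up in their brain. All mice of both groups were heterozygous male 5xFAD animals on a C57BL/6J background, 16 weeks of age. The ABX mice were raised with a normal specific-pathogen-free (SPF) flora in Freiburg and drank vancomycin, cefoxitin, gentamicin and metronidazole for the last 8 weeks. The GF mice came from the germ-free facility in Bern and had no microbes at any age. Condition and animal source therefore cannot be told apart in any difference below. Further libraries of the study were used where named: 3 SPF 5xFAD mice, and 5 ABX, 4 GF and 5 SPF wild-type (WT) mice of the same age. Microglia were sorted by flow cytometry as CD11b+ CD45low cells negative for a mixture of other lineage markers, and polyadenylated RNA was sequenced.

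Microglia are the resident macrophages of the brain. They take up debris and Aβ and break it down in lysosomes, acid vesicles filled with cathepsins and other hydrolases and acidified by a proton pump, the V-ATPase. Around plaques they pass from a homeostatic state, marked by purine and chemokine receptors such as *P2ry12* and *Cx3cr1*, to a disease-associated (DAM) state that depends in part on the lipid receptor Trem2 and is marked by *Apoe*, *Cst7*, *Clec7a*, *Itgax* and *Axl*. Bacterial products such as short-chain fatty acids are known to shape microglia in the healthy brain. Antibiotics remove most gut bacteria from an adult host that grew up with them, whereas a germ-free mouse never met any, so the comparison asks how 2 ways of lacking a flora differ in the same disease model.

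Reads on genes ranged from 15538689 to 25015029 per ABX library and from 20192168 to 26117479 per GF library. The 10 microglial markers examined summed to between 52347 and 59585 CPM, reads scaled to a common depth, in the ABX mice and between 48920 and 59279 CPM in the GF mice, with none of them at 0. *App* lay between 187 and 259 CPM in all 11 libraries, *Xist* at or below 0.121 CPM and the Y-linked *Ddx3y* between 55.2 and 125 CPM. Mouse FAD_GF_201 is labelled 5xFAD in its title and genotype but WT in its free-text description and in its column name. Its 774 CPM of *Cst7*, a plaque-induced microglial gene, stood against 5.65 to 17.0 CPM in the 4 WT GF mice, and its 5321 CPM of *Apoe* against 405 to 955 CPM, which goes with a 5xFAD label. Mouse FAD_ABX_1151 has a description written in the style of the SPF 5xFAD mice, while the other 5 ABX mice share the style of the GF mice. It also had far more neutrophil transcripts than the others of the 11 (143.6 CPM over the marker list, against at most 0.774 CPM in the other ABX mice, at most 0.0495 CPM in the GF mice and 61.1 to 263 CPM in the SPF 5xFAD mice). Mouse FAD_ABX_1482 stood apart on the first principal component of the 11 libraries, at 98.6 against -40.2 to 20.8 for the others. Mice are named by group and number, and values without these 3 mice are given where they change a result.

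ABX microglia differed from GF microglia in 1621 of 15298 genes tested (10.6%), of which 692 genes (4.52%) were higher and 929 (6.07%) lower in ABX, at an adjusted p under 0.05 in edgeR's quasi-likelihood test over all 28 libraries. Most differences were modest: the median log2 fold change was 0.61 among the genes higher in ABX and -0.49 among those lower, and 167 and 74 of them respectively passed 1 on the log2 scale. The groups did not overlap, with all 6 ABX mice on one side of all 5 GF mice, for 158 tested genes in the higher direction (1.03%) and 274 in the lower direction (1.79%), most of which also passed the test. Among the 5488 genes averaging at least 5 log2 CPM, 385 (7.02%) were higher and 602 (11.0%) lower, so that well-measured genes were called more often in both directions. Scaling by library size alone in place of TMM factors gave 1173 genes higher and 554 lower, with a median log2 fold change over all genes of 0.089 against 0.01 with TMM factors, so that 67.9% of the calls were higher against 42.7% with TMM factors. With only the 11 libraries in the fit, 105 genes were called higher and 146 lower, and 104 and 142 of these were among the calls of the full fit. The full fit takes part of its estimate of spread from the other 17 libraries. Leaving mouse FAD_ABX_1482 out of the 11-library fit, an alternative chosen after the data were seen, gave 513 and 580 calls. Without mouse FAD_ABX_1151, the comparison in which all mice share one style of description, 437 genes were higher and 543 lower. Without mouse FAD_GF_181 the counts were 480 and 592, and without mouse FAD_ABX_1482 they were 1135 and 1362.

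**Figure D1:**
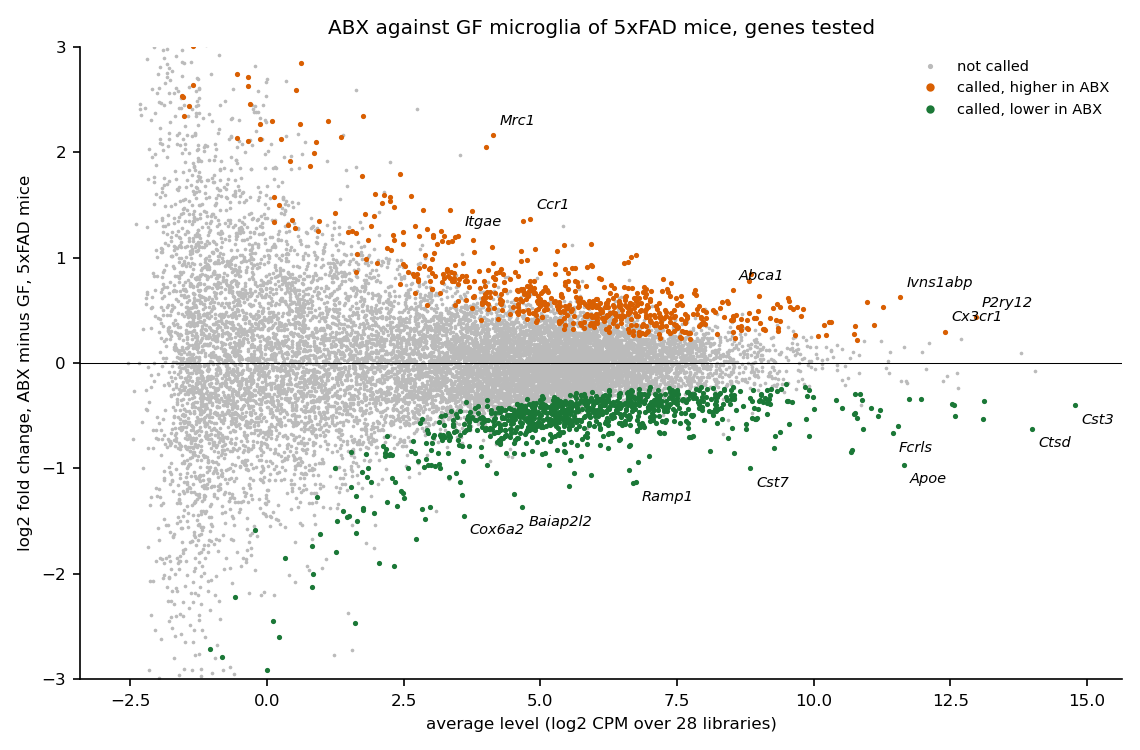
Log2 fold change of ABX against GF 5xFAD microglia (vertical axis) by average log2 CPM over the 28 libraries (horizontal axis), 1 point per gene tested, coloured by the call at an adjusted p under 0.05. The 692 genes called higher lie above 0 and the 929 called lower lie below it, mostly within 1 log2 unit of it. The vertical axis stops at 3 on either side, which leaves 233 genes outside the plot, 95 of them called.

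Of the lists examined, the DAM signature had the highest share of members called. Of its 36 members tested, 29 (80.6%) were lower in ABX than in GF 5xFAD microglia and none was higher, against 6.07% lower over all genes and 11.0% among those averaging at least 5 log2 CPM, and 6 (16.7%) did not overlap, against 1.79%. The list had a median log2 fold change of -0.70 against 0.01 over all genes. Some of these genes were followed by the study on these same mice because they were high in GF microglia, so the direction of the list is not independent evidence. *Cst7*, which encodes the cysteine protease inhibitor cystatin F, lay between 532 and 777 CPM with a median of 699 CPM in the ABX mice. In mice FAD_GF_181, FAD_GF_182, FAD_GF_184, FAD_GF_185 and FAD_GF_201, an order kept below, it reached 1652, 1443, 1335, 1425 and 774 CPM (log2 fold change -0.99, SE 0.19, adjusted p = 0.00158). Of the 6 ABX mice, 5 were below every GF mouse, and mouse FAD_GF_201 was much nearer to the ABX mice than to the other 4 GF mice. *Apoe*, the lipid carrier whose human alleles set Alzheimer risk, lay between 2922 and 6434 CPM with a median of 4163 CPM under ABX and at 10154, 9253, 9329.6, 9596 and 5321 CPM in GF (log2 fold change -0.96, SE 0.20, adjusted p = 0.00391). Here 4 of 6 ABX mice were below all GF mice, and mouse FAD_GF_201 again fell within the ABX range. Without mouse FAD_GF_201 the differences were larger, at a log2 fold change -1.10, adjusted p = 0.000774 for *Apoe* and a log2 fold change -1.14, adjusted p = 0.000166 for *Cst7*. *Itgax*, the CD11c integrin chain, lay between 46.2 and 96.7 CPM with a median of 67.5 CPM under ABX and at 146, 152, 119.8, 141 and 97.4 CPM in GF, so that the groups did not overlap (log2 fold change -0.89, SE 0.23, adjusted p = 0.0124).

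Receptors of the signature were among the lower members. *Trem2* lay between 2006 and 2754 CPM with a median of 2327 CPM under ABX and at 3268, 3464, 3278, 3248 and 2406 CPM in GF (log2 fold change -0.43, SE 0.09, adjusted p = 0.00381), and its signalling adaptor *Tyrobp* differed by more (log2 fold change -0.85, SE 0.12, adjusted p = 0.0002). *Clec7a*, the β-glucan receptor Dectin-1, lay between 269 and 342 CPM with a median of 309 CPM under ABX and at 529, 481, 440.0, 509 and 305 CPM in GF, with 2 of 6 ABX mice below all GF mice and mouse FAD_GF_201 the only GF mouse within the ABX range (log2 fold change -0.55, SE 0.17, adjusted p = 0.0306). It passed the test under 12 of 22 alternative settings. *Axl*, a receptor tyrosine kinase for dying cells, had a similar fold change but missed the threshold (log2 fold change -0.68, SE 0.23, adjusted p = 0.0535). The secreted members *Igf1*, *Ccl3*, *Ccl4* and *Ccl6* were lower, at log2 fold changes of -0.96, -0.94, -1.14 and -0.80, while *Spp1*, which encodes osteopontin, was at -0.18, adjusted p = 0.81. Late DAM genes present at low counts, *Gpnmb* (-1.19, adjusted p = 0.359) and *Dkk2* (-1.56, adjusted p = 0.227), did not pass. *Cadm1*, an adhesion molecule, was lower in every ABX mouse (log2 fold change -0.62, SE 0.09, adjusted p = 0.00016), and *Fth1*, the ferritin heavy chain, in 5 of 6 (log2 fold change -0.82, SE 0.13, adjusted p = 0.000389). As a mean over the list, the 6 ABX mice lay -0.89 to -0.58 log2 units relative to the GF mean, 4 GF mice at 0.02 to 0.32 and mouse FAD_GF_201 at -0.58, so that 1 of the 5 GF mice was level with the ABX mice. Leaving out any 1 mouse left 23 to 30 members called lower.

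Homeostatic genes were more often higher than lower in ABX. Of 30 tested members, 8 were higher in ABX (26.7%), 2 were lower (6.67%) and 20 were not called, against 4.52% higher and 6.07% lower over all genes and 7.02% and 11.0% among genes averaging at least 5 log2 CPM, with a median of 0.17. *P2ry12*, the ADP receptor that guides microglial processes, lay between 5285 and 8654 CPM with a median of 7102 CPM under ABX and at 4992, 4457, 5018, 5175 and 6705 CPM in GF (log2 fold change 0.43, SE 0.10, adjusted p = 0.00624), with 4 ABX mice above all GF mice. Its neighbour *P2ry13* gave 0.53 (adjusted p = 0.00263). Both lie within *Med12l*, and the unstranded reads cannot tell overlapping genes apart. *Cx3cr1*, the fractalkine receptor, was above every GF mouse in all 6 ABX mice by a small margin (log2 fold change 0.30, SE 0.09, adjusted p = 0.0235). *Mef2a* (0.56), *Tgfbr1* (0.58), *Slc2a5* and *Sall1* (0.31), the last a transcription factor that keeps microglial identity, were also higher. *Tmem119* (0.19, adjusted p = 0.176), which marks the same state, did not pass. *Fcrls*, a microglial Fc receptor-like gene, went against the list: it lay between 1846 and 2496 CPM with a median of 2239.5 CPM under ABX and at 3644, 3451, 3308, 3397 and 3696 CPM in GF with no overlap (log2 fold change -0.66, SE 0.07, adjusted p = 2.86e-06). The protease inhibitor *Cst3*, among the genes with the most reads, was also lower (log2 fold change -0.40, SE 0.10, adjusted p = 0.00922). The count of higher members depended on single mice, being 5 without mouse FAD_GF_181, 13 without mouse FAD_ABX_1482 and 14 without mouse FAD_GF_201. It also depended on the setting, being 4 with only the 11 libraries in the fit and 15 with library size alone.

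Of the 12 largest falls among genes averaging at least 3 log2 CPM and with no overlap between the groups, the first was *Cox6a2*, the heart and muscle isoform of a cytochrome c oxidase subunit. It lay between 9.12 and 18.9 CPM with a median of 13.1 CPM in the ABX mice against 38.1, 37.1, 43.0, 45.6 and 21.4 CPM in the GF mice (log2 fold change -1.45, SE 0.21, adjusted p = 0.000175), and mouse FAD_GF_201 was the lowest of the GF mice. *Baiap2l2*, which encodes a membrane-bending protein, lay between 26.1 and 39.7 CPM with a median of 29.9 CPM under ABX and at 118, 90.9, 65.6, 86.9 and 42.1 CPM in GF (log2 fold change -1.37, SE 0.27, adjusted p = 0.00222). In WT mice it was at or below 1.40 CPM whatever the flora, and *Cox6a2* at or below 2.31 CPM, against 13.5 to 17.5 CPM of *Cox6a2* in the SPF 5xFAD mice. *Fam20c*, a Golgi kinase of secreted proteins, gave 78.6 to 143 CPM in GF and 36.3 to 69.4 CPM under ABX (log2 fold change -1.16, SE 0.21, adjusted p = 0.0013). *Ramp1*, the accessory chain of the receptor for calcitonin gene-related peptide (CGRP), lay between 82.6 and 147 CPM with a median of 115 CPM under ABX and at 260.1, 293, 289.6, 275 and 148 CPM in GF (log2 fold change -1.13, SE 0.17, adjusted p = 0.000268). *Psat1*, an aminotransferase of serine synthesis, lay between 104 and 142 CPM with a median of 125 CPM under ABX and at 286, 273, 252, 257 and 166 CPM in GF (log2 fold change -1.01, SE 0.13, adjusted p = 4.62e-05). *Prpf31*, a splicing factor of the tri-snRNP particle, lay between 30.3 and 51.7 CPM with a median of 45.0 CPM under ABX and at 109, 107, 82.2, 73.1 and 78.1 CPM in GF, a narrow and clearly separated pair of ranges (log2 fold change -1.07, SE 0.13, adjusted p = 2.87e-05). The predicted gene *Gm15927* overlaps it.

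The other large falls were *Rgs11*, a regulator of G protein signalling (-1.13), *Adora1*, the adenosine A1 receptor (-1.08), *Hmgn3*, a nucleosome-binding protein (-1.05), *Plaur*, the urokinase receptor (-1.05), *B3gnt7*, a glycosyltransferase (-1.0), and *Crem*, a transcription factor of the cyclic AMP response (-0.97), with adjusted p from 0.000139 to 0.0142. *Adora1* and *Hmgn3* overlap *Mybph* and *Gm2065*, whose reads may be shared with them. In all, 11 of the 12 passed under every alternative setting tried that kept them, *Rgs11* missing 1 of 22.

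The 12 largest rises were taken by the same rule. *Ccr1*, a receptor of inflammatory chemokines such as CCL3, lay between 19.3 and 52.3 CPM with a median of 39.6 CPM under ABX and at 7.69, 16.6, 15.0, 15.8 and 15.2 CPM in GF (log2 fold change 1.37, SE 0.28, adjusted p = 0.00341). All 6 ABX mice were above all GF mice, and mouse FAD_GF_181 was far below the other GF mice. Of the chemokines it binds, *Ccl3* and *Ccl6* were lower in ABX as given above. *Ptger3*, a prostaglandin E2 receptor, rose from 2.20 to 5.24 CPM in GF to 5.83 to 15.2 CPM under ABX (log2 fold change 1.21, SE 0.27, adjusted p = 0.00624). *Il7r*, the interleukin 7 receptor chain, lay between 21.4 and 54.8 CPM with a median of 34.6 CPM under ABX and at 16.8, 15.7, 21.1, 19.7 and 16.7 CPM in GF (log2 fold change 1.07, SE 0.18, adjusted p = 0.000701). *Itgae*, the CD103 integrin chain, lay between 7.49 and 17.1 CPM with a median of 14.2 CPM under ABX and at 4.27, 6.26, 4.21, 7.49 and 6.80 CPM in GF (log2 fold change 1.20, SE 0.21, adjusted p = 0.000785), although *Gsg2* lies inside it. *Calcrl*, which pairs with Ramp1 to form the CGRP receptor, was higher (log2 fold change 0.94, SE 0.22, adjusted p = 0.008) while *Ramp1* was lower. The smallest adjusted p among the 12 rises was that of *Fam208b*, which lay between 30.9 and 66.4 CPM with a median of 47.8 CPM under ABX and at 16.5, 21.3, 20.8, 30.3 and 23.6 CPM in GF (log2 fold change 1.12, SE 0.16, adjusted p = 0.00016) and overlaps *Gdi2*. *Acsl3*, a fatty acid activating enzyme (0.99), *Atp11b*, a phospholipid flippase subunit (0.91), *Nfat5*, the transcription factor of osmotic stress (0.90), *Trim68*, a ubiquitin ligase (0.93), *Eml6*, a microtubule-binding protein (1.16, overlapping *Rtn4*), and *Nhsl2* (0.97) made up the rest, with adjusted p from 0.000305 to 0.00977. By reads, the genes called higher were led by *P2ry12*, *Cx3cr1* and *Ivns1abp* (log2 fold change 0.62, SE 0.13, adjusted p = 0.00285), and the genes called lower by *Cst3*, *Ctsd* and *Ctss*.

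**Figure D2:**
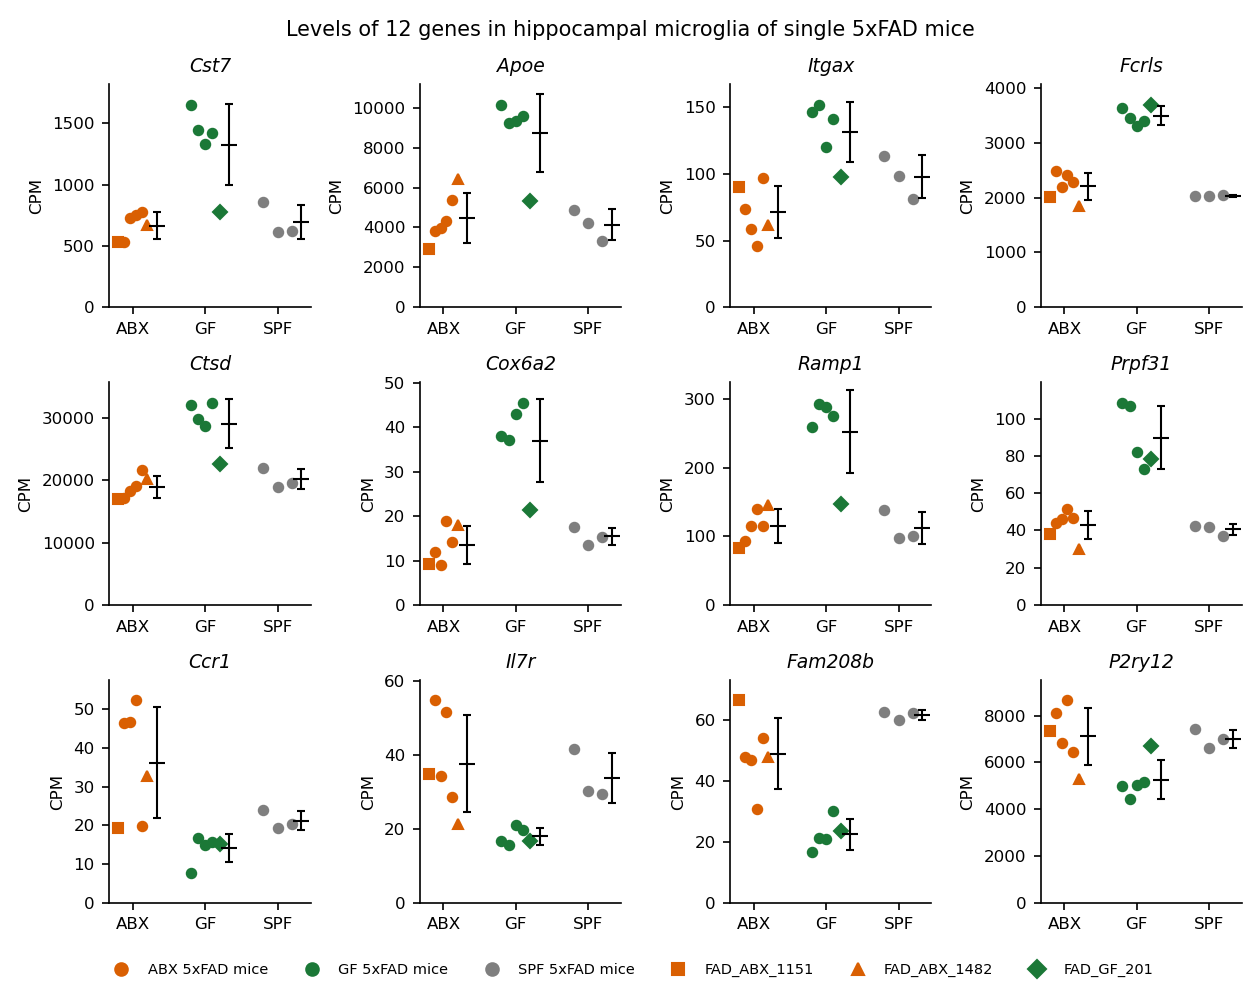
Level in CPM of 12 named genes in each ABX, GF and SPF 5xFAD mouse (points), with the mean and SD of each group (bars); mice FAD_ABX_1151 and FAD_ABX_1482 and mouse FAD_GF_201 have markers of their own. For Cst7 and Apoe mouse FAD_GF_201 lies with the ABX mice, whereas for Fcrls, Ctsd and Prpf31 all 5 GF mice lie above the 6 ABX mice, and for Ccr1, Il7r and Fam208b all 6 ABX mice lie above the GF mice.

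Many lysosomal genes were lower under ABX. Of 36 cathepsins and other lysosomal hydrolases tested, 19 were lower and 2 higher, with a median of -0.29, and in 7 of them (19.4%) the groups did not overlap in the lower direction. Lower members were thus 52.8% of the list, against 6.07% of all genes and 11.0% of those averaging at least 5 log2 CPM, and 1.79% of all genes did not overlap in that direction. Several of these genes also belong to the DAM list. *Ctsd*, the aspartic protease cathepsin D, lay between 17076 and 21704 CPM with a median of 18657 CPM under ABX and at 32000.4, 29788, 28648, 32466 and 22562 CPM in GF (log2 fold change -0.62, SE 0.07, adjusted p = 1.9e-05). All 6 ABX mice were lower than all GF mice, of which mouse FAD_GF_201 was the lowest, and no alternative setting ended the call. *Ctsz* (-0.60, adjusted p = 0.000268), *Gusb*, which encodes β-glucuronidase (-0.58, adjusted p = 0.000244), *Glb1*, which encodes the β-galactosidase of lysosomes (-0.55, adjusted p = 0.00182), and *Npc2*, the soluble cholesterol carrier of the lysosome (-0.65, adjusted p = 0.000306), followed. *Ctsz* overlaps *Nelfcd*, and *Glb1* overlaps *Tmppe*. *Ctss*, which encodes cathepsin S, differed by less but with no overlap (log2 fold change -0.36, SE 0.07, adjusted p = 0.00336). The members that were higher, *Sgsh* (0.63, adjusted p = 0.021) and *Ids* (0.73, adjusted p = 0.0157), both encode sulfatases that degrade heparan sulfate. Among 16 lysosomal membrane proteins, 5 were lower (31.3%, and 3 without FAD_GF_185) and none higher, including *Lamp1* (log2 fold change -0.35, SE 0.07, adjusted p = 0.00353), *Cd63* (-0.84) and the macrophage marker *Cd68* (-0.42). Of 16 V-ATPase subunits, 10 were lower (62.5%) and none higher, led by *Atp6v1f* (log2 fold change -0.73, SE 0.13, adjusted p = 0.000983) and *Atp6v0e* (log2 fold change -0.50, SE 0.11, adjusted p = 0.00434). The V-ATPase count was 3, 5 and 6 without mice FAD_ABX_1151, FAD_ABX_1452 and FAD_ABX_1453, 4, 6, 5 and 5 without mice FAD_GF_181, FAD_GF_182, FAD_GF_184 and FAD_GF_185, and 4 with gene length offsets, whereas the hydrolase count stayed between 16 and 18 when any 1 mouse was left out. With only the 11 libraries in the fit, 10 hydrolases were called lower.

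The promoters of lysosomal genes often carry CACGTG, the E-box read by TFEB and related factors. It was searched in the 250 bases upstream of the RefSeq start site (build GRCm38.p6), a palindrome that reads the same on both strands, for the 10200 of the 15298 tested genes with a matched window. The hexamer occurred in 8.4% of these windows, in 13 of the 53 lysosomal hydrolase, lysosomal membrane and V-ATPase genes with a window (24.5%), and in 7 of the 26 of them that were lower in ABX (26.9%). The share among lower members was thus close to that of the whole group. Over all genes, 9.80% of those lower and 7.83% of those higher in ABX held it. Its longer form TCACGTGA, which contains the hexamer, was found in 1.6% of tested windows, in 4 of the 53 and in 1 of the 26, and a still longer palindrome of 10 bases, with 1 more base on either side, in 0.588% of tested windows and in 0 of the 53. Such a match is only a description of letters. Windows of the 4 genes named here that are lower in ABX and hold the motif are printed 5′ to 3′ on the strand of the gene, with the hexamer in capitals, to show how its number and place differ. *Ctsl* was lower at a log2 fold change of -0.52. *Ctsd* (chr7:142387828-142388077, minus strand) and *Lamp1* (chr8:13158911-13159160, plus strand) hold 2 and 4 copies, and *Glb1* (chr9:114400828-114401077, plus strand) and *Ctsl* (chr13:64370521-64370770, minus strand) 1 each.
Ctsd: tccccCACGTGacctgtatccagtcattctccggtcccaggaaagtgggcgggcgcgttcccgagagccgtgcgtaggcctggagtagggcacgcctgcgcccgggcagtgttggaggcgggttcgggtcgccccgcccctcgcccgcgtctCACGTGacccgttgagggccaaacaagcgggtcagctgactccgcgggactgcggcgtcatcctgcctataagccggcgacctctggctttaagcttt
Lamp1: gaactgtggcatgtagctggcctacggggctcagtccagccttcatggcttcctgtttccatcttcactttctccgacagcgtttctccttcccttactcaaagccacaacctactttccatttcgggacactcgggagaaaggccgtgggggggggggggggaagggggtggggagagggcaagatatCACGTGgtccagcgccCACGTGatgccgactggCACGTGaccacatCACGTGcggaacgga
Glb1: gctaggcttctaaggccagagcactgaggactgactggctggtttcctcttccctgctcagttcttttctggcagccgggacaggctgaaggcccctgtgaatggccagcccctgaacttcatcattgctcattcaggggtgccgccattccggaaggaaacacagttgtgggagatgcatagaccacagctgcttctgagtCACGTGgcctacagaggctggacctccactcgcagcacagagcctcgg
Ctsl: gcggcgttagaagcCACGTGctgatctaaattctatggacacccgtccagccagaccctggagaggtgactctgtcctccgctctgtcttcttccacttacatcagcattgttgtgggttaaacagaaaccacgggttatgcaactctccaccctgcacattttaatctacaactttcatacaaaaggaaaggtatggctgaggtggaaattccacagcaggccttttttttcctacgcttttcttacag

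Genes of energy metabolism and protein synthesis formed the next group. Mitochondria make ATP through respiratory complexes I to V, built from nuclear and mitochondrially encoded subunits. Of 37 nuclear complex I subunits, 28 were lower in ABX and none higher (median -0.46), and of 38 nuclear subunits of complexes II to V, 27 were lower and none higher (median -0.45). These are 75.7% and 71.1% of the lists, against 6.07% lower over all genes and 11.0% among those averaging at least 5 log2 CPM. The groups overlapped for most of them and did not overlap for 5 (13.5%) and 2 (5.26%) members respectively, against 1.79% over all genes. *Ndufs8*, a core subunit of complex I, and *Ndufa9*, an accessory one, were lower in all 6 ABX mice (-0.51, adjusted p = 0.00306 and -0.41, adjusted p = 0.00624 respectively). *Ndufa1* lay between 38.0 and 66.9 CPM with a median of 43.2 CPM under ABX and at 104, 83.2, 78.9, 108 and 48.4 CPM in GF (log2 fold change -0.84, SE 0.17, adjusted p = 0.00227), with 4 ABX mice below all GF mice. *Atp5b*, the catalytic β subunit of ATP synthase, showed a small difference with no overlap (log2 fold change -0.35, SE 0.07, adjusted p = 0.00158), and *Cox4i1* and *Cox7b* of complex IV larger ones with overlap (-0.70 and -0.70). None of the 7 tested mitochondrially encoded genes was called in either direction by edgeR, DESeq2 or limma-voom, and 0 had an unadjusted p under 0.05 in edgeR (median -0.18), for example *mt-Nd2* (-0.19, adjusted p = 0.629) and *mt-Nd4* (-0.19, adjusted p = 0.648). Mitochondrially encoded reads were between 0.103% and 0.318% of the total in all 11 libraries.

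Some ribosomal and proteasomal genes were lower as well. In the cytosolic ribosome, 19 of 46 genes of the large and 11 of 32 of the small subunit were lower, with medians of -0.52 and -0.52, and none was higher. These shares of 41.3% and 34.4%, like those of the lists that follow, stand against 6.07% lower over all genes and 11.0% among those averaging at least 5 log2 CPM. *Rpl4* (log2 fold change -0.50, SE 0.09, adjusted p = 0.00132) and *Rpl6* (log2 fold change -0.55, SE 0.13, adjusted p = 0.00844) did not overlap between the groups, nor did *Rps3a1* (log2 fold change -0.60, SE 0.14, adjusted p = 0.00902). Ribosomal protein genes have many processed pseudogenes, so that their counts are uncertain. Of 76 mitochondrial ribosomal genes 18 were lower (23.7%) and none higher, with *Mrps15* lower in every ABX mouse (log2 fold change -0.40, SE 0.09, adjusted p = 0.00609). Of 34 proteasome subunits 13 were lower (38.2%) and none higher, including *Psmb6* (-0.54) and *Psmd4* (-0.44). The per-mouse means showed which libraries carried these differences. For complex I the ABX mice lay -0.73 to -0.17 log2 units relative to the GF mean, with mice FAD_ABX_1151 (-0.73) and FAD_ABX_1460 (-0.68) lowest, and mouse FAD_GF_201 at -0.24 was below mice FAD_ABX_1455 and FAD_ABX_1482. For the large ribosomal subunit mouse FAD_ABX_1460 was lowest at -0.84, and mouse FAD_GF_201 at -0.32 was below 3 ABX mice.

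These counts depended on which mice were used. For complex I, 14 members were called without mouse FAD_ABX_1151, 18 without FAD_ABX_1452 and 18 without FAD_ABX_1460, and 17, 18 and 15 without mice FAD_GF_181, FAD_GF_184 and FAD_GF_185. For complexes II to V the counts were 14, 15 and 16 without mice FAD_ABX_1151, FAD_GF_181 and FAD_GF_185. The large ribosomal subunit gave 12, 12 and 10 calls without mice FAD_ABX_1151, FAD_GF_184 and FAD_GF_185, and the small subunit 7 without any one of FAD_ABX_1151, FAD_ABX_1460, FAD_GF_181 and FAD_GF_185 and 17 without FAD_GF_201. For the mitochondrial ribosome, 7, 10, 9 and 10 members were called without mice FAD_ABX_1151, FAD_ABX_1452, FAD_GF_184 and FAD_GF_185, and 29 without FAD_ABX_1482. For the proteasome 7 were called without FAD_ABX_1151 and 20 without FAD_ABX_1482. With only the 11 libraries in the fit, 1 complex I subunit, 2 subunits of complexes II to V, 1 large and 0 small ribosomal subunit genes were called.

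**Figure D3:**
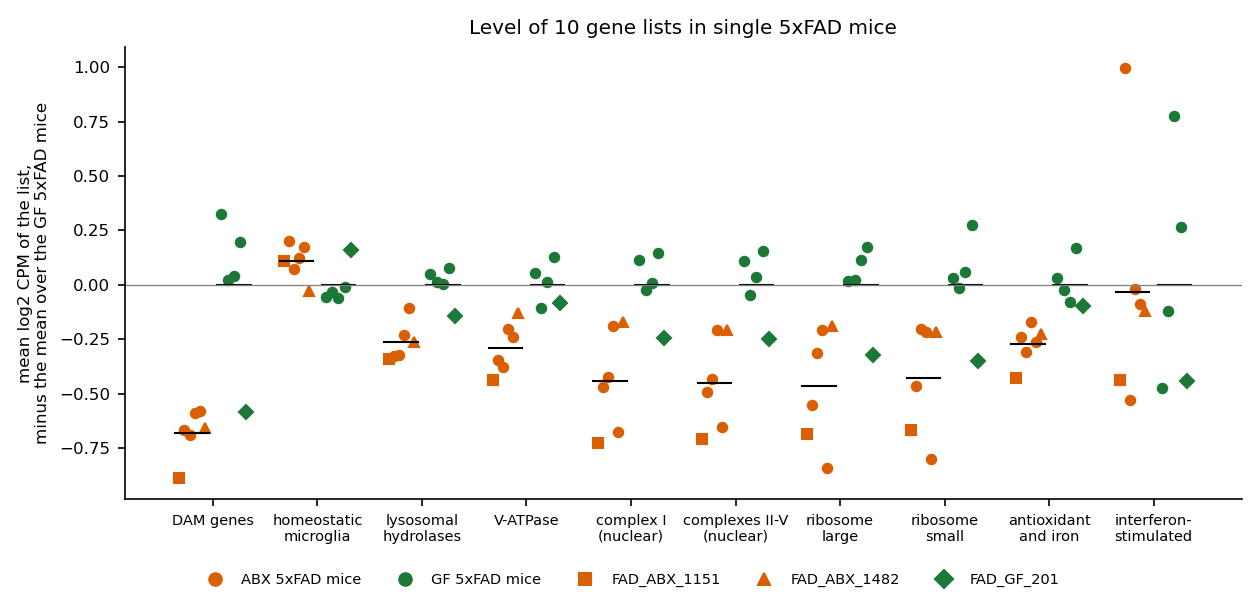
Mean log2 CPM over the tested members of 10 gene lists in each ABX and GF 5xFAD mouse (points), relative to the mean of the 5 GF mice, which is the line at 0. The ABX mice lie between -0.89 and -0.58 for the disease-associated list, with mouse FAD_GF_201 at -0.58, and for the interferon list the ABX and GF mice spread over the same range.

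These lists hold short transcripts, and length moved with the comparison. The median length was 1381 bases for complex I subunits against 3516 bases over all tested genes, and 2353 bases for the genes lower and 5399 bases for the genes higher in ABX. Among the 2355 tested genes of 1 to 2 kb, 1.44% were higher and 11.7% lower in ABX (median log2 fold change -0.14), and among the 4841 genes over 5 kb, 8.01% were higher and 2.58% lower (median 0.11). In WT mice the medians of the same bins were 0.01 and 0.03. For genes under 1 kb the median was -0.09 in 5xFAD and 0.14 in WT mice. Genes over 5 kb took 29.5 to 37.5% of the reads in the ABX mice and 28.1 to 30.4% in the GF mice. With gene length as an offset, 597 genes were higher and 676 lower, 482 and 582 of them shared with the fit without it, with 15 calls in complex I, 8 in the mitochondrial ribosome and 7 in the proteasome. The part that transcript length or RNA quality has in these lists was not tested further. The differences of *Cst7*, *Apoe*, *Ctsd* and *Fcrls* with length offsets were -0.75, -0.85, -0.51 and -0.55, against -0.99, -0.96, -0.62 and -0.66 without them.

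**Figure D4:**
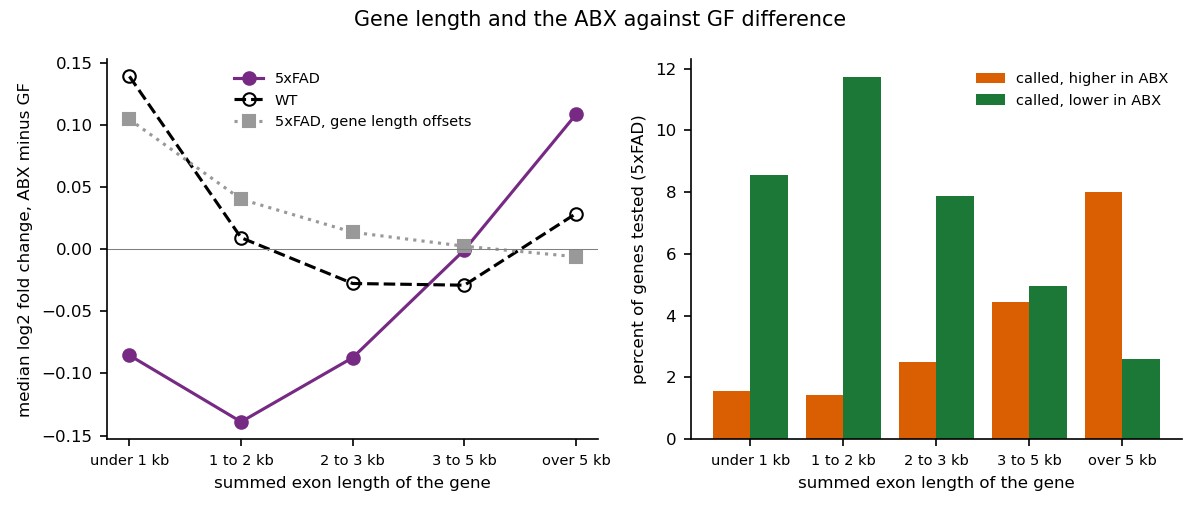
Median log2 fold change of ABX against GF by bin of gene length (horizontal axis, length in kb) in 5xFAD and WT mice, with the same in 5xFAD mice after gene length offsets (grey), and in the right panel the percent of genes called higher and lower in 5xFAD mice (bars). Without the offsets, in 5xFAD mice 11.7% of genes of 1 to 2 kb and 2.58% of genes over 5 kb were lower, and the medians were -0.14 and 0.11.

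Windows of the respiratory chain genes were searched for the palindromic 10-base core read by the nuclear respiratory factor NRF1. It occurred in 1.70% of the 10200 windows, in 4 of 62 nuclear respiratory subunit genes (6.45%) and in 3 of the 47 that were lower in ABX (6.38%). Those 3 are printed below, 5′ to 3′ on the strand of the gene with the motif in capitals. They belong to *Cox6a1* (log2 fold change -0.63, chr5:115348959-115349208, minus strand), *Atp5k* (-0.64, chr5:108434400-108434649, minus strand) and *Ndufa11* (-0.42, chr17:56717512-56717761, plus strand).
Cox6a1: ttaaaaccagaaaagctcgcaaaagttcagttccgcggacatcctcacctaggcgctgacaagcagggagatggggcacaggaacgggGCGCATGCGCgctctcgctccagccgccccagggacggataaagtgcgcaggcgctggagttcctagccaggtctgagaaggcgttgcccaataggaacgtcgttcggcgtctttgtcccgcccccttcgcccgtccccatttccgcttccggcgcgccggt
Atp5k: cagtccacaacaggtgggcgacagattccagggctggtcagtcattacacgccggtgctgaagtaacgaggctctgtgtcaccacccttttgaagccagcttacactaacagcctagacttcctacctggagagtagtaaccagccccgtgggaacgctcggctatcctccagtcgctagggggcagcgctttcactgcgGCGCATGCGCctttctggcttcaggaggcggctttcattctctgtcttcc
Ndufa11: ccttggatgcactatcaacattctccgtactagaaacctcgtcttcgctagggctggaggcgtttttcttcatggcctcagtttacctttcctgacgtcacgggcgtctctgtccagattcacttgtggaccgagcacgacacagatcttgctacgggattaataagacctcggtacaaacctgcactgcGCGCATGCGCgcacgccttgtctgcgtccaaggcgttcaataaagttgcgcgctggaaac

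Of 19 glycolytic genes, 9 were lower (47.4%) and 1 higher (5.26%), against 6.07% and 4.52% over all genes (median -0.32). *Ldha*, which makes lactate, lay between 186 and 256 CPM with a median of 230.7 CPM under ABX and at 329.8, 320.3, 320.2, 339 and 261 CPM in GF with no overlap (log2 fold change -0.47, SE 0.09, adjusted p = 0.00218), and *Aldoa* and the lactate exporter *Slc16a3* were lower as well (-0.53 and -0.69). *Hk2*, the inducible hexokinase, was the member that was higher (log2 fold change 0.45, SE 0.13, adjusted p = 0.0218), a call lost without FAD_ABX_1151 or FAD_GF_184. Of 25 antioxidant and iron genes, 9 were lower (36.0%) and 1 higher (4.0%). Both ferritin chains were lower, *Fth1* as above and *Ftl1* (log2 fold change -0.71, SE 0.13, adjusted p = 0.00114), with the peroxiredoxin *Prdx4* (log2 fold change -0.73, SE 0.13, adjusted p = 0.000906) and the endosomal iron transporter *Slc11a1* (log2 fold change -0.53, SE 0.09, adjusted p = 0.000774), whereas *Slc40a1*, the iron exporter ferroportin, was higher (log2 fold change 0.57, SE 0.14, adjusted p = 0.0123). Ferritin genes also have many processed pseudogenes.

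Lipid genes gave no single direction. None of 23 genes of cholesterol synthesis and uptake was called by edgeR, where 4 had an unadjusted p under 0.05, while DESeq2 and limma-voom each called 1 lower (median -0.19). Among 12 targets of the sterol sensor LXR, *Apoe* and *Lpl* (-0.71) were lower while *Abca1*, the cholesterol exporter (log2 fold change 0.69, SE 0.19, adjusted p = 0.0191), and *Mylip*, a ligase that degrades the LDL receptor (log2 fold change 0.59, SE 0.10, adjusted p = 0.000673), were higher. *Mylip* lay between 284 and 394 CPM with a median of 315 CPM under ABX and at 209.7, 161, 201.1, 258 and 256 CPM in GF, with no overlap. Of 18 genes of lipid storage and fatty acid handling, 3 were lower, among them *Plin2*, which coats lipid droplets (log2 fold change -0.69, SE 0.12, adjusted p = 0.00123), and *Fabp5* (-1.09), and 1 was higher, *Acsl1* (log2 fold change 0.59, SE 0.13, adjusted p = 0.00498). These are 16.7% and 5.56% of the list, against 6.07% and 4.52% over all genes, and only 1 was lower without FAD_ABX_1151, FAD_ABX_1452, FAD_ABX_1453 or FAD_GF_184, against 5 lower and 2 higher without FAD_ABX_1482. Of the LXR targets, 1 was higher without FAD_ABX_1151, FAD_GF_182 or FAD_GF_184, and 1 was lower without FAD_ABX_1151, FAD_ABX_1452, FAD_GF_181, FAD_GF_182 or FAD_GF_185.

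Among the immune lists, complement gave calls in both directions. The C1q subunits, which tag synapses and debris, were lower, at *C1qa* (-0.34), *C1qb* (log2 fold change -0.53, SE 0.10, adjusted p = 0.00117) and *C1qc* (-0.39). *C1qb* lay between 6505 and 11469 CPM with a median of 8534 CPM under ABX and at 12249, 12438, 14016, 12751 and 11725 CPM in GF, with no overlap. Of the whole complement list of 14, 5 were lower and 3 higher, the higher ones being *Itgam*, the CD11b chain used in the sort (log2 fold change 0.35, SE 0.09, adjusted p = 0.0112), *C5ar2* and *C4b* (log2 fold change 1.25, SE 0.39, adjusted p = 0.0372). These are 35.7% and 21.4% of the list, against 6.07% and 4.52% over all genes, with 1 higher without FAD_ABX_1452, FAD_ABX_1455, FAD_GF_181 or FAD_GF_185. Of 8 Fc receptor genes 4 were lower, *Fcrls*, *Fcgr3* (log2 fold change -0.30, SE 0.07, adjusted p = 0.00826), the common chain *Fcer1g* (-0.43) and *Fcrl1*. Of 15 MHC class I genes 4 were lower (26.7%), including *H2-D1* (-0.53), *H2-K1* (-0.43) and their partner *B2m* (-0.50). The *H2* genes are near-identical paralogs whose reads may be split between them. Of 8 MHC class II genes *H2-Oa* (-0.55) and *H2-DMa* (-0.39) were lower (25.0%, against 6.07% over all genes), whereas *H2-Aa* ranged over 14.8 to 239 CPM under ABX and 20.0 to 113 CPM in GF and was not called (1.12, adjusted p = 0.243). Of 39 interferon-stimulated genes 2 were higher, *Slfn8* (0.53) and the RNA sensor *Ddx58* (0.56), and 1 was lower, *Ifi27l2a* (-0.86). The mean of this list ran over -0.53 to 1.00 log2 units in the ABX and -0.47 to 0.77 in the GF mice, a spread far wider than the difference. None of 22 NF-κB and inflammatory cytokine genes was called by edgeR, with 4 at an unadjusted p under 0.05, 1 called higher by DESeq2 and 0 called by limma-voom. Of 22 Toll-like receptor genes *Tlr4* was higher (log2 fold change 0.51, SE 0.14, adjusted p = 0.0173) and its coreceptor *Cd14* lower (log2 fold change -0.39, SE 0.10, adjusted p = 0.0104). The call of *Tlr4* was lost without FAD_ABX_1151, FAD_GF_181 or FAD_GF_184, and 5 members of that list were higher without FAD_ABX_1482 or FAD_GF_201. Without 1 mouse the interferon list had 0 to 3 higher and 0 to 2 lower members. Leaving out 1 mouse moved the members called lower to 3 to 6 for the MHC class I, 0 to 3 for the MHC class II and 3 to 6 for the Fc receptor list. None of the MHC class II genes was called without FAD_ABX_1151, FAD_GF_182 or FAD_GF_184, and 1 without FAD_ABX_1452, FAD_ABX_1460, FAD_GF_181 or FAD_GF_185. Among 22 chemokine genes, the receptors *Ccr1* and *Cx3cr1* were among the higher members and the ligands *Ccl3*, *Ccl4* and *Ccl6* were lower (13.6% of the list), with 1 lower without FAD_GF_182.

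Of 18 immediate early genes, which respond within minutes to stimulation and to tissue handling, 4 were lower: *Zfp36* (log2 fold change -0.56, SE 0.14, adjusted p = 0.0133), *Ier2* (-0.77), *Ier3* (-0.95) and *Jund* (-0.52). This is 22.2% of the list against 6.07% over all genes, but only 1 was called without FAD_ABX_1151, FAD_GF_181 or FAD_GF_182 and 2 without FAD_ABX_1452 or FAD_ABX_1453. Of 24 heat shock and chaperone genes 2 were lower, *Calr* (log2 fold change -0.31, SE 0.05, adjusted p = 0.00049) and *Hsp90ab1* (-0.34, adjusted p = 0.0282), a share (8.33%) near that over all genes. Of 18 clock genes, *Cry1*, a repressor of the clock, was higher with no overlap (log2 fold change 0.82, SE 0.17, adjusted p = 0.00397) and *Nr1d1*, which overlaps *Thra*, lower (-1.90, adjusted p = 0.0174). When 1 mouse was left out, 0 to 1 clock genes were called lower, and *Nr1d1* ranged from -2.18 to -1.46. The time of day of each collection is not given in the sources used here. Of 13 glucocorticoid targets 1 was lower, the metallothionein *Mt1* (-0.62, adjusted p = 0.0402), which passed in 10 of 22 alternatives (7.69% of the list). Of 33 genes of autophagy and mTOR signalling, 6 were lower and none higher, among them *Map1lc3a* (-0.60), *Map1lc3b* (-0.29) and *Gabarap* (-0.44), which coat autophagosomes, and *Becn1* (-0.38), a starter of their formation. That is 18.2% of the list, and 3 were called without FAD_ABX_1151, FAD_ABX_1452 or FAD_GF_185. Of 15 genes of the TGF-β pathway, which maintains microglia, the receptor *Tgfbr1*, the feedback factor *Skil* (log2 fold change 0.65, SE 0.16, adjusted p = 0.00907) and the activating integrin *Itgav* (log2 fold change 0.70, SE 0.19, adjusted p = 0.0187) were higher, and the decoy receptor *Bambi* was lower with no overlap (log2 fold change -1.23, SE 0.27, adjusted p = 0.00503). The 3 higher members of this list (20.0%) were 1 without FAD_ABX_1151 and 5 without FAD_ABX_1482. Of 19 microglial identity factors, *Sall1* and *Mef2a* were among the 3 higher members (15.8%, against 4.52% over all genes), and the myeloid factors *Cebpa* (-0.57) and *Cebpb* (-0.59) were lower (10.5%, against 6.07%). Only 1 was higher without FAD_GF_181, and 1 was lower without FAD_ABX_1151, FAD_ABX_1455, FAD_ABX_1460 or FAD_GF_184 and 0 without FAD_GF_185. Of 16 histone deacetylase genes, *Sirt2* (-0.44) and *Hdac3* (-0.27) were lower. Of 7 genes that sense short-chain fatty acids, bile acids or aryl hydrocarbons, *Arnt* was higher (0.35), which is 14.3% of the list against 4.52% over all genes. That call was lost without FAD_ABX_1453, FAD_ABX_1460, FAD_GF_184 or FAD_GF_185. Of 28 cell cycle genes only *Tyms* was called, lower, with 0 to 1 members lower when any 1 mouse was left out. The shares called among deacetylase (12.5%), clock (11.1%), glucocorticoid and cell cycle genes (3.57%) were near or below the 10.6% over all genes, as were those of the interferon (7.69%) and Toll-like receptor lists (9.09%), and nothing is read from them about these lists.

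As the mice came from different facilities, some genes known to vary among C57BL/6 lines were examined. *Nnt*, a mitochondrial transhydrogenase that is partly deleted in C57BL/6J, lay between 56.5 and 114 CPM with a median of 82.9 CPM under ABX and at 134, 135, 95.9, 132 and 143 CPM in GF (log2 fold change -0.65, SE 0.15, adjusted p = 0.00609), with 5 of 6 ABX mice below all GF mice. *Ide*, the insulin-degrading enzyme, which also cleaves Aβ, lay between 58.5 and 147 CPM with a median of 126 CPM under ABX and at 72.5, 79.5, 76.8, 70.7 and 72.8 CPM in GF (log2 fold change 0.62, SE 0.15, adjusted p = 0.00905). *Wdfy1* (0.63, adjusted p = 0.214) and *Cyfip2*, which averaged below 1 CPM, were not called. Counts per gene do not read alleles, and no genotype of the lines was available to compare.

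Markers of other cells moved with part of the comparison, and fewer cells of a type and less RNA per cell cannot be told apart in these bulk samples. The 10 markers of border-associated macrophages, of which at most 1 was at 0 in any of these libraries, summed to 584 to 872 CPM in the ABX mice and 309 to 588 CPM in the GF mice, most of it *Stab1* (62.9 to 93.8% and 82.1 to 96.7%). The other 9 markers summed to 36.0 to 266 CPM and 11.0 to 83.4 CPM. *Mrc1* lay between 13.6 and 97.0 CPM with a median of 43.7 CPM under ABX and at 16.1, 5.04, 2.86, 6.43 and 26.4 CPM in GF (log2 fold change 2.16, SE 0.45, adjusted p = 0.00351), and *Stab1* gave 0.49, adjusted p = 0.0323. These were the 2 markers called (20.0%, against 4.52% higher over all genes), against 6 without mouse FAD_GF_201 and 1 without any one of mice FAD_ABX_1452, FAD_ABX_1453 and FAD_ABX_1460 and mice FAD_GF_182, FAD_GF_184 and FAD_GF_185. Astrocyte markers summed to 214 to 319 CPM against 155 to 189 CPM, nearly all of it *Slc1a3*, which was above every GF mouse in all 6 ABX mice (log2 fold change 0.47, SE 0.11, adjusted p = 0.00826). Of the 7 astrocyte markers tested, 5 were higher and 2 lower at any size of difference. *Gfap* lay at 0.0 to 3.86 CPM under ABX and 1.14 to 5.27 CPM in GF, and *Gja1* at or below 0.0575 CPM. Endothelial markers summed to 26.6 to 44.1 CPM against 9.73 to 30.2 CPM with none called by edgeR, 1 at an unadjusted p under 0.05 and 0 called by DESeq2 or limma-voom, and monocyte markers to 15.4 to 54.6 CPM against 8.86 to 31.8 CPM. Besides these, 1 scarce marker each of astrocytes (*Aldh1l1*), monocytes (*Chil3*), neurons (*Gad1*) and T cells (*Cd4*) was called higher, at averages of 0.92, 1.15, -1.49 and -1.13 log2 CPM. The astrocyte markers called, 2 of 7 (28.6%, against 4.52% over all genes), were 1 to 4 when any 1 mouse was left out. The groups overlapped for all 4 scarce markers, and *Chil3* had reads in FAD_ABX_1151 only of these 11 mice. When any 1 mouse was left out, the monocyte, neuron and T cell lists each had 0 to 1 members called higher. Oligodendrocyte markers summed to 157 to 199.2 CPM and 170 to 223 CPM, neuronal markers to at most 22.6 CPM and T cell markers to at most 4.64 CPM. B cell markers summed to 585 to 808 CPM and 661 to 806 CPM, nearly all of it *Ighm*. The 4 neutrophil markers called higher in ABX, among them *S100a9* and *Ngp*, were above 1 CPM in mouse FAD_ABX_1151 only of these 11, and none was called without it. The part of these cells in the other differences was not tested.

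The same comparison in WT mice shares no library with that in 5xFAD mice. There 1053 genes (6.88%) differed between ABX and GF microglia, 367 (2.4%) higher and 686 (4.48%) lower in ABX. In WT, the style of the descriptions differs between ABX and GF mice and cannot be told apart from the condition. These WT counts depended on the setting, being 98 and 134 with GC content offsets, 869 and 1156 with the weighted limma-voom fit and 137 to 405 and 309 to 748 when any 1 mouse was left out, and the overlap that follows rests on them. Both comparisons called 210 genes, 13.0% of the 5xFAD calls and 19.9% of the WT calls, 197 of them in the same direction (69 higher and 128 lower). Of the 1621 genes called in 5xFAD mice, 1234 (76.1%) had the same sign in WT mice. Across all tested genes the log2 fold changes of both genotypes had a Pearson's r of 0.087, and of 0.358 across the 5488 genes averaging at least 5 log2 CPM, as a description, since genes of the same libraries are not independent. *Prpf31* was lower in both, at -1.07 in 5xFAD and -1.60, adjusted p = 1.64e-07 in WT mice. *Apoe* was lower in WT mice too, from 405 to 955 CPM in GF to 293 to 451 CPM under ABX (-1.10, adjusted p = 0.0048), at a level far below that in 5xFAD mice. *Fam20c* (-1.15), *Psat1* (-0.69), *Ramp1* (-0.62), *C1qb* (-0.42), *P2ry12* (0.41) and *Mylip* (0.55) were also called in WT mice in the same direction.

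The difference between the genotypes was tested as an interaction, and 269 genes passed (1.76%), 140 (0.915%) with a more positive and 129 (0.843%) with a more negative ABX to GF difference in 5xFAD mice. Of these, 131 were also called in 5xFAD mice. The counts of 140 and 129 became 52 to 246 and 33 to 245 when any 1 mouse was left out, so that they rest on single mice. *Tyrobp* (-0.88, SE 0.19, adjusted p = 0.0157), *Ccl6* (-0.88, SE 0.23, adjusted p = 0.0452), *Fth1* (-0.73, SE 0.19, adjusted p = 0.0485) and *Fcrls* (-0.41, SE 0.10, adjusted p = 0.0418) differed more strongly in 5xFAD than in WT mice. *B2m* went in opposite directions, -0.50 in 5xFAD and 0.57 in WT mice (-1.07, SE 0.20, adjusted p = 0.00762). The interaction was not past the threshold for *Apoe* (0.14, SE 0.31, adjusted p = 0.879), *Cst7* (-0.74, SE 0.31, adjusted p = 0.221) or *Trem2* (-0.26, SE 0.14, adjusted p = 0.341), which does not show that their differences were equal. By list, the DAM median was -0.70 in 5xFAD and -0.32 in WT mice with 4 members past the interaction test, all more negative in 5xFAD. Complex I had medians of -0.46 and 0.08 with 4 such members, including *Ndufa1* (-1.37, SE 0.25, adjusted p = 0.00691), and complexes II to V had medians of -0.45 and 0.08 with 5, including *Cox7b* (-1.12, SE 0.22, adjusted p = 0.0109). The mitochondrially encoded genes had medians of -0.18 and 0.94, all 7 being higher in WT ABX than in WT GF mice, and 5 of them passed the interaction test. MHC class II genes had medians of 0.41 and -1.98. *H2-Aa* lay at 0.661 to 3.26 CPM in WT ABX and 3.63 to 71.4 CPM in WT GF mice (interaction 5.34, SE 0.99, adjusted p = 0.00691). The markers of border-associated macrophages, which can also carry MHC class II, moved the same way, with medians of 1.74 and -4.61. Of the 10, 6 were lower in WT ABX than in WT GF mice and 8 passed the interaction test, and without *Stab1*, which made up at least 93.7% of their sum in every WT ABX and WT GF mouse, they summed to 3.88 to 5.94 CPM in WT ABX and 10.9 to 44.3 CPM in WT GF mice, with 4 to 8 and 0 to 3 of the 10 at 0. Their part in the MHC class II difference was not tested.

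**Figure D5:**
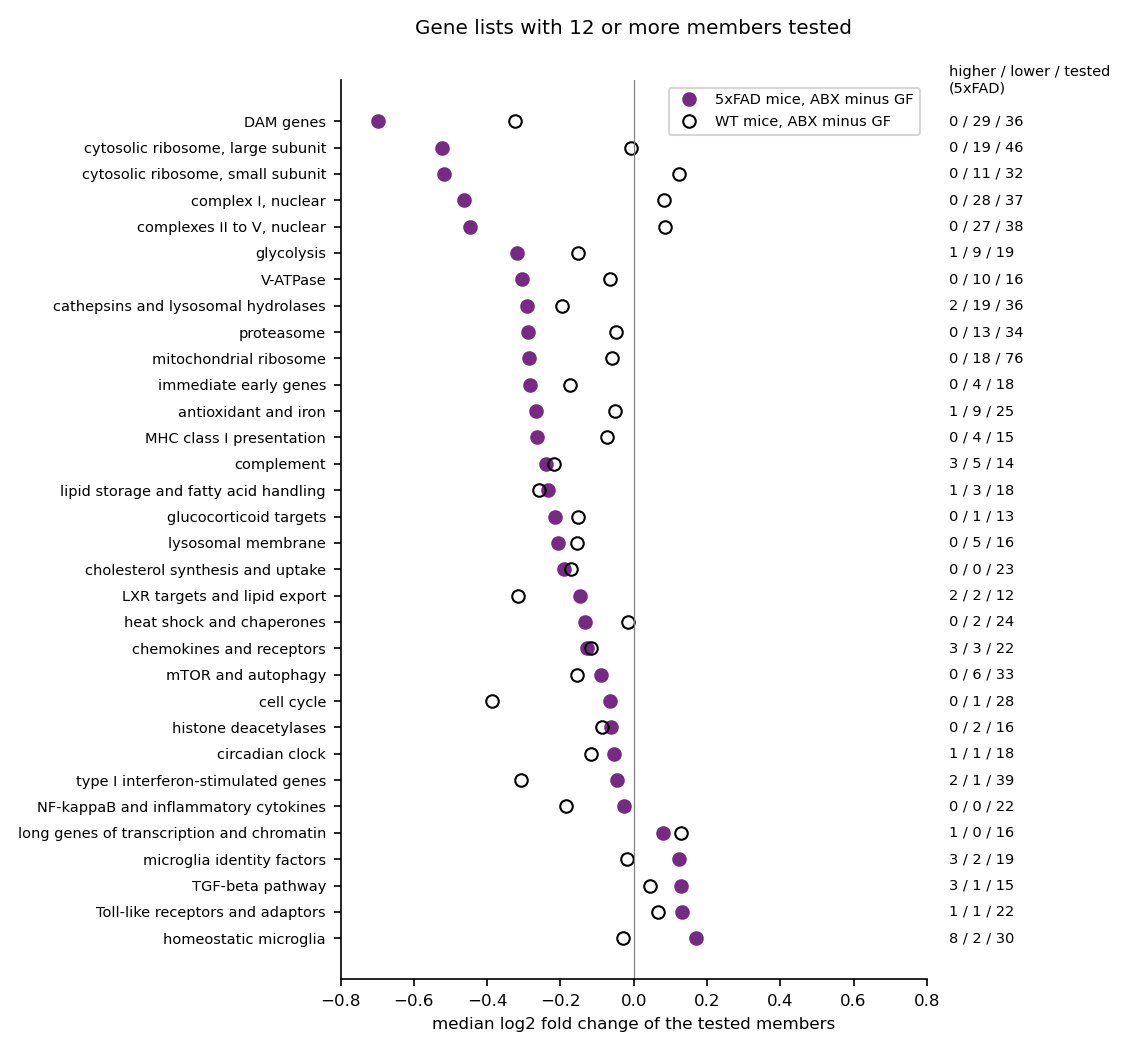
Median log2 fold change of ABX against GF (horizontal axis) in 5xFAD mice (filled points) and in WT mice (open points), for gene lists with at least 12 tested members. Each list is a row of the vertical axis, and the numbers beside it are the members called higher, called lower and tested in 5xFAD mice. The disease-associated list lies at -0.70 in 5xFAD and -0.32 in WT mice, and complex I at -0.46 and 0.08.

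The 3 SPF 5xFAD mice place the 2 groups relative to a normal flora, and since both contrasts share these mice their values are only set side by side. GF and SPF 5xFAD microglia differed in 1962 genes (12.8%), 1066 (6.97%) higher and 896 (5.86%) lower in GF. All GF mice share one style of description and all SPF 5xFAD mice the other, so that style and condition cannot be told apart here, and of the ABX mice only FAD_ABX_1151 shares the style of the SPF mice. Library size alone turned this balance of higher and lower genes, with 626 higher and 1295 lower, and the weighted limma-voom fit called 2037 and 1835. ABX and SPF 5xFAD microglia differed in 0 genes (0.0%) by edgeR, with 1085 at an unadjusted p under 0.05, while DESeq2 called 3 higher and 1 lower and the weighted limma-voom fit, which the study used, called 62 and 72. The DAM list had a median of 0.57 for GF against SPF and -0.07 for ABX against SPF, complex I 0.52 and 0.04, the large ribosomal subunit 0.49 and 0.01, and the hydrolases 0.28 and 0.02. *Cst7* lay at 856, 616 and 621 CPM in the SPF mice, within or next to the ABX range, and gave 0.93, adjusted p = 0.0101 for GF against SPF and -0.07 for ABX against SPF. *Apoe* lay at 4879.7, 4204 and 3342 CPM in the SPF mice (1.08, adjusted p = 0.00731 for GF and 0.11 for ABX), and *Ctsd* gave 0.53, adjusted p = 0.00131 and -0.09. *Prpf31* was at 42.6, 42.0 and 37.3 CPM, far from the GF range, and *Fam208b* at 62.6, 59.8 and 62.3 CPM. *Ccr1* was at 23.9, 19.4 and 20.4 CPM and *Il7r* at 41.6, 30.3 and 29.6 CPM in the SPF mice. For *Il7r* these lie within the ABX range and above all GF mice, and for *Ccr1* at the lower end of the ABX range, next to the GF mice.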

How the data were processed

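RNA of hippocampal microglia, 1 mouse per library, had been amplified with SMARTer v4 and made into Nextera XT libraries, which keep no strand, and sequenced as single reads. The authors deposited whole-number read counts for each gene, made by featureCounts (1.6.2) on STAR (2.7.2) alignments, per the labels' processing notes, with GENCODE M21 genes of GRCm38 per the study's methods. The 92 spike-in entries were left out, leaving 48587 genes, of which 46484 have a name found in M21. The same processing notes name a human genome build, which conflicts with the study's methods. Counts of all 28 libraries were fitted in edgeR (4.0.16, R 4.3.3) with 1 mean per group, TMM factors and filterByExpr (minimum count 10, total 15), which left 15298 genes, and ABX was tested against GF by the quasi-likelihood F test with Benjamini-Hochberg adjustment at 0.05. CPM of named genes are scaled by TMM factors, and marker sums by library size. Lists are described by counts and medians, with no test of their own. The members and lists were chosen with earlier results of these data known. Named genes were the 12 largest rises and falls among called genes that averaged at least 3 log2 CPM, did not overlap and were not predicted models, the 3 highest-expressed called genes in each direction, up to 4 called members per list with the smallest p and any needed to say what a list holds, and genes followed by the study. Alternatives were RLE factors, library size alone, other filters, offsets for gene length or GC content, DESeq2 (1.42.0), limma's (3.58.1) voomWithQualityWeights, the 11 libraries alone and leaving out mice. Counts of this comparison were simulated over 15298 genes with a smooth trend of spread, no outlying mouse and changes only in better expressed genes. There edgeR recovered 36% of changes of 0.5 and 86% of changes of 1 on the log2 scale. Of its calls 2.4% were false, a share that need not hold for the real counts. Pairs of libraries of a group differed by more than sampling noise, so none was counted as a repeat. Replicates are separate mice, but litters and cages are not given in the sources used here. Depth was 15538689 to 26117479 reads on genes per library. Some list members are counted with their lists but not reported by name here.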

Additional observations from a re-analysis of the deposited data

Results flagged for a closer look

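Of 340 groups of 4 to 10 values examined, 36 held a mouse far from the rest by Dixon's test, and chance flags about 1 in 20 groups. Of the flagged genes, 17 concerned mouse FAD_GF_201, whose CPM were *Apoe* (5321), *Trem2* (2406), *Cst7* (774), *Sall1* (574), *Tmem119* (4421), *Cox6a2* (21.4), *Ramp1* (148), *Psat1* (166), *Ctsz* (4107), *Npc2* (818), *Lamp1* (2374), *Aldoa* (403), *Ldha* (261), *H2-Oa* (44.6), *Mt1* (54.6), *Ngp* (0.0519) and *Ctsl* (2431). That mouse also stood apart in the share of reads on genes over 5 kb (30.4%) and in the summed microglial markers (59279 CPM). Among ABX mice, mouse FAD_ABX_1151 stood apart for *Hk2* (204), *S100a9* (25.1), *Ngp* (47.9) and *Chil3* (8.29) and for the summed neutrophil markers (143.6 CPM), mouse FAD_ABX_1482 for *Nr1d1* (0.0651) and *Arnt* (70.5), mouse FAD_ABX_1455 for *Sall1* (517) and mouse FAD_ABX_1460 for *mt-Nd4* (50.2). Among the other GF mice, mouse FAD_GF_181 stood apart for *Ccr1* (7.69), for T cell markers (2.96 CPM) and for erythrocyte markers (0.543 CPM), mouse FAD_GF_182 for *Cd4* (0.182), mouse FAD_GF_184 for *Nnt* (95.9) and mouse FAD_GF_185 for *Hk2* (120.3) and *Cyfip2* (3.70) and for neuronal markers (22.6 CPM).

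The ABX to GF difference depended on genotype, by the interaction test at an adjusted p under 0.05, for 25 of the named genes. On the log2 scale, the difference in 5xFAD minus that in WT mice was negative for *Tyrobp* (-0.88), *Ccl6* (-0.88), *Fth1* (-0.73), *Fcrls* (-0.41), *Cox6a2* (-1.32), *Adora1* (-1.79), *Hmgn3* (-1.35), *Ndufa1* (-1.37), *Cox7b* (-1.12), *mt-Nd2* (-1.47), *mt-Nd4* (-1.28), *Slc16a3* (-0.75), *B2m* (-1.07), *Fcer1g* (-0.63), *Gabarap* (-0.66) and *Atp5k* (-0.98), and positive for *Cx3cr1* (0.49), *Eml6* (1.41), *Acsl3* (1.61), *Nhsl2* (0.88), *Acsl1* (0.75), *H2-Aa* (5.34), *C4b* (2.95), *Mrc1* (3.69) and *Stab1* (1.11). The counts of such genes changed with single mice, as given next.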

How the results depend on the processing

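No paired analysis was possible because every mouse has a number of its own. For ABX against GF in 5xFAD mice, genes called higher were 1173 with library size alone, 105 with the 11 libraries alone, 192 at an adjusted p under 0.01 and 1882 at an unadjusted p under 0.05. Genes called lower were 554, 146, 333 and 2017 under the same settings, 583 without a filter on low counts and 580 in the 11-library fit without mouse FAD_ABX_1482. Leaving out 1 mouse gave 437 to 1135 higher and 543 to 1362 lower, with the extremes without mice FAD_ABX_1151 and FAD_ABX_1482. In WT mice DESeq2 called 595 genes higher, the weighted limma-voom fit 869 higher and 1156 lower, and GC offsets 98 and 134, and leaving out 1 mouse gave 137 to 405 and 309 to 748, with mice WT_ABX_909, WT_ABX_910 and WT_ABX_911 and mice WT_GF_229, WT_GF_230 and WT_GF_231 each lowering both counts by over 1.5 times. For the genotype difference DESeq2 called 293 more positive and 258 more negative genes, library size alone 69 and no filter 68 more negative ones. Leaving out 1 mouse gave 52 to 246 and 33 to 245, fewest without mouse WT_GF_229, with as few more negative ones without WT_ABX_911, and most without mouse FAD_GF_201, so that these counts rest on single mice. The DAM list had 17 members lower at an adjusted p under 0.01 and 23 to 30 without 1 mouse. Homeostatic members called higher were 15 with library size alone, 4 with the 11 libraries alone, 4 at 0.01, 14 at the unadjusted threshold and 5 to 14 without 1 mouse. Complex I members called lower were 15 with length offsets, 15 with library size alone, 18 in the 11-library fit without mouse FAD_ABX_1482, 1 with the 11 libraries alone, 10 at 0.01 and 14 to 33 without 1 mouse. Complexes II to V had 2 with the 11 libraries alone, 12 at 0.01 and 14 to 31 without 1 mouse, and the hydrolases 10, 12 and 16 to 18. Of the genes named and tested, 9 values changed sign, none of them called: *Spp1* (0.0454 without mice FAD_ABX_1151 and FAD_ABX_1482), *Gpnmb* (-2.15 to 0.25 without 1 mouse), *mt-Nd2* and *mt-Nd4* (0.0541 and 0.0190 with length offsets) and *Cyfip2* (-0.96 to 4.37 without 1 mouse). The cause was not tested. Most changes of 0.5 on the log2 scale were missed in simulated counts of this design, in which depth, spread and the number of mice were not varied.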

Other observations

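A few genes set all 9 GF libraries of both genotypes apart from the other 19 libraries. They were picked after their values were seen, and their levels are a description. Above all others in GF were *Prpf31* (73.1 to 136 CPM in GF against 30.3 to 51.7 CPM), the Arf GTPase-activating gene *Agap3* (51.2 to 63.2 against 27.8 to 50.4 CPM), *Mrps15* of the mitochondrial ribosome (76.2 to 98.9 against 47.9 to 71.7 CPM), the arginine methyltransferase *Carm1* (58.3 to 69.8 against 37.8 to 57.5 CPM), *Ptov1* (118 to 136 against 71.0 to 110 CPM) and the pseudogene *Gm4742*, which was below 0.265 CPM elsewhere. Below all others were *Qser1* (7.67 to 13.7 against 14.2 to 24.6 CPM), the mitochondrial calcium uptake regulator *Mcur1* (70.3 to 96.7 against 108 to 163 CPM), *Adrbk2*, a kinase of G protein-coupled receptors (20.2 to 35.7 against 36.1 to 47.3 CPM), *Azi2* (25.3 to 45.6 against 45.8 to 68.8 CPM), which takes part in innate immune kinase signalling, and the pseudogene *Gm28438*, which had no read in any GF library and 0.371 to 2.01 CPM in the others. All GF mice came from 1 facility, so that the source of the animals and the absence of microbes cannot be told apart for these genes.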
